A study of Mus musculus with 6 samples.

Results

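The 39 genes described here encode the enzymes and regulators that remove reactive oxygen species in lung, together with subunits of the enzyme complex that makes superoxide in phagocytes. They were taken as a list of gene names whose rule uses no expression value, although earlier results of these data were known when the list was made. All 39 of 39 were found among the 23473 genes of the deposited table. Each was represented by its RefSeq transcript with the largest total count. The series is RNA-seq of whole lung from mice with intact TSPO (wild type, WT) and from TSPO knockout (KO) animals, with the label C57BL/6 and an age of 6 to 8 weeks for both genotypes. Each genotype had 3 libraries, and each library held the RNA of 3 littermates, so that 9 mice per genotype were sequenced as pools. KO mice lack Tspo exons 2 and 3 in all cells, because Cre driven by the sperm-specific protamine promoter removed the floxed region in the male germ line. The methods do not say whether the WT mice carried a floxed allele or a transgene. Whether the pooled litters of one genotype came from separate parents is not stated either, so p-values measure the spread between these pools only.

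Superoxide is converted to hydrogen peroxide by superoxide dismutases. Peroxide is then removed by catalase, by glutathione peroxidases that use the tripeptide glutathione, and by peroxiredoxins, most of which are recharged by thioredoxin. Many genes of glutathione synthesis and conjugation are activated by the transcription factor NRF2, which KEAP1 holds back in unstressed cells. In the lung these systems meet inhaled oxygen and pollutants in the epithelium and the airway lining fluid, while the NADPH oxidase of neutrophils and macrophages releases superoxide to kill microbes.

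Tspo itself marked the genotypes in every library. Its level, in CPM (counts relative to the TMM-scaled library total), was 156, 153 and 153 in WT replicates 1, 2 and 3 and 21.6, 21.7 and 19.7 in KO replicates 1, 2 and 3, a log2 fold change of −2.87 (SE 0.10, adjusted p = 1.42e-07 by the quasi-likelihood test of edgeR). It was the 1 gene past the threshold of an adjusted p under 0.05 among 14802 tested. Total counts over genes ran from 9617086 to 11942318 per library, and the 39 genes took 0.468% to 0.626% of them. Ribosomal precursor Rn45s took 11.4% of the counts in WT replicate 3 and 0.224% to 0.427% in the other libraries. Defining markers of lung were high in all 6 libraries, with sums of 33200 to 42900 CPM for alveolar type 2 cells, 22900 to 35200 CPM for club cells and 3930 to 4560 CPM for endothelial cells. WT replicate 2 stood apart by genes of squamous epithelium, whose summed level was 1340 CPM there and 9.43 to 15.3 CPM elsewhere, of fast skeletal muscle, at 127 CPM against 17.9 to 22.9 CPM, and of fat, at 270 CPM against 74.8 to 143 CPM. The squamous sum of WT replicate 2 was carried mainly by Krt13 and Krt4, at 610 and 513 CPM, while Krt10 was not raised there (2.68 CPM). Of the fat genes, Cfd was not raised in WT replicate 2, at 94.9 CPM against 95.6 CPM in WT replicate 1. In whole tissue, fewer cells of a type and less RNA per cell cannot be told apart.

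Some of the proteins contain selenocysteine, the amino acid at the active site that is written into the messenger RNA as TGA, a codon that elsewhere ends translation. The coding sequences show which members belong to this class. The codon is in capitals in the lines that follow, which give coding-exon sequence of GRCm38 (the assembly of mm10) on the gene's strand, and the Gpx7 line shows the cysteine codon that stands in its place.
Gpx1, chr9:108339439-108339465, codon 47: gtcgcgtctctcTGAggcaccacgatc
Gpx3, chr11:54907244-54907270, codon 73: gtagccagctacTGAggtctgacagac
Gpx4, chr10:80054725-80054751, codon 73: gtggcctcgcaaTGAggcaaaactgac
Gpx7, chr4:108403418-108403444 on the minus strand, codon 56: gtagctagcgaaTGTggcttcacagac
Txnrd1, chr10:82896025-82896045, codon 498: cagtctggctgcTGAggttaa
Txnrd2, chr16:18477760-18477780, codon 526: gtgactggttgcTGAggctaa
In the thioredoxin reductases the selenocysteine codon lies just before the last codon and the stop, whereas in the peroxidases it lies well inside the coding sequence. The 5 selenoprotein genes had fitted log2 fold changes from 0.00 to 0.17, and 0 passed the test.

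No gene of the 39 passed the test between KO and WT lungs. All 39 had enough counts to be tested, and the smallest adjusted p was 0.9999 (edgeR's quasi-likelihood test with Benjamini-Hochberg adjustment), where 0.00676% of all genes passed. At an unadjusted p under 0.05 there were 0 of 39, where 1.88% of all genes tested had such a p (0.446% higher and 1.43% lower in KO). The count was also 0 with limma-voom, with DESeq2 and with the exact test of edgeR. Log2 fold changes ran from −0.14 for Ncf1 to 0.20 for Mt1, with a median of 0.05 against 0.00 for all genes. Fitted means were higher in KO for 30 genes and lower for 9, that is 76.9% higher, where 50.8% of all genes tested were higher and 53.5% of the genes within the same range of levels. Without KO replicate 1 the count higher in KO was 21 of 39, and the median was 0.02. With a correction for GC content and transcript length, added after the data were seen, it was 25 of 39. A 2-fold change, up or down, lay outside the 95% confidence interval for 39 of 39 genes, against 93.2% of all genes and 99.3% of those within the same range of levels. A 1.5-fold change lay outside it for 38 of 39, the exception being Nqo1, against 75.5% of all genes and 92.8% of those within the same range of levels.

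**Figure D1:**
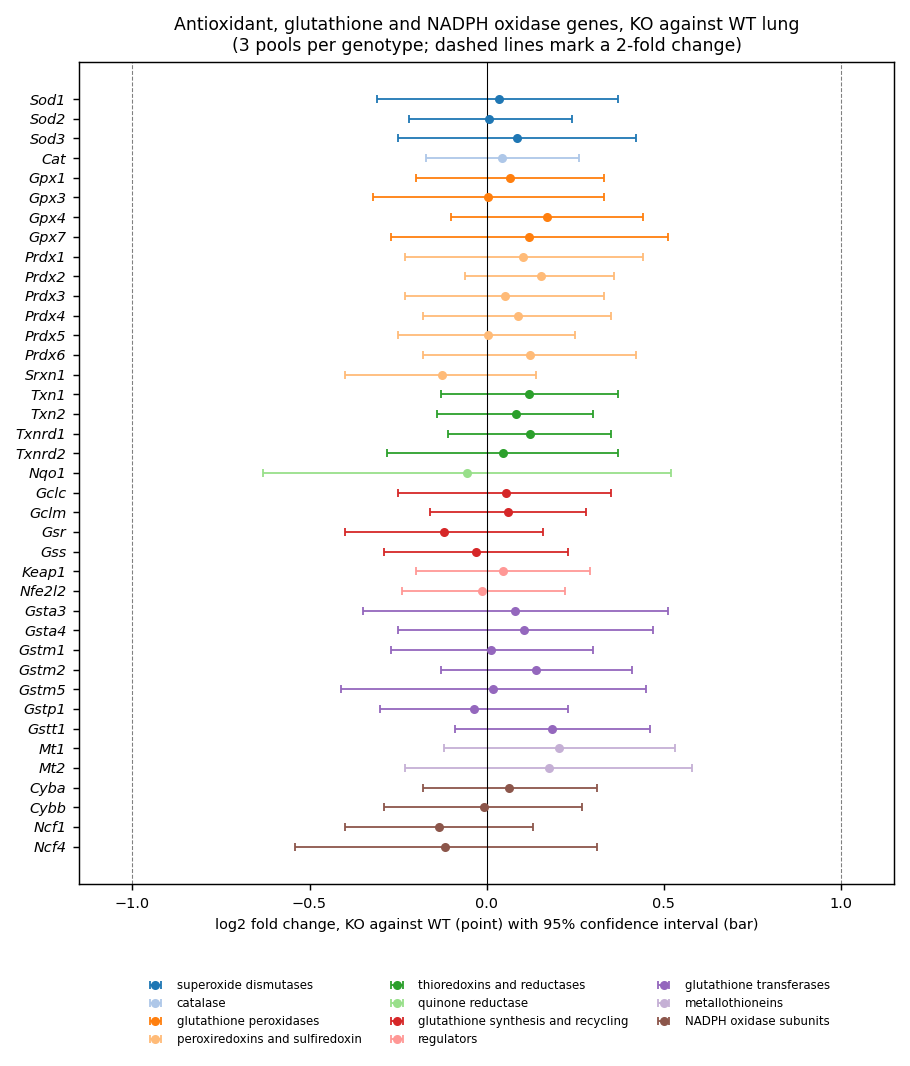
Log2 fold change of KO against WT for each of the 39 genes, coloured by role; points are edgeR estimates from 3 pools per genotype and bars are 95% confidence intervals. Every interval includes 0 and lies inside the dashed lines of a 2-fold change, and the widest is that of Nqo1 (−0.63 to 0.52).

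Levels of different genes are compared here as CPM per kilobase of transcript, averaged over the 6 libraries. Gpx3, which encodes the secreted plasma glutathione peroxidase, was highest at 515 CPM per kilobase, followed by Sod1 at 462. Gpx1, Gpx4, Prdx6 and Gstm1 came next, at 285, 274, 251 and 216, and Txn1 and Gsta3 stood at 187 and 147. At the other end were Nqo1 at 4.82, Gclm at 5.45, Txnrd2 at 7.21, Gstm5 at 8.60 and Srxn1 at 9.14 CPM per kilobase. The ranges over libraries of Gpx3 and Sod1 overlapped, as did those of Gpx1, Gpx4 and Prdx6. The range of Gstm1 overlapped those of Gpx4, Prdx6 and Txn1, and the range of Txn1 overlapped that of Gsta3. The order among genes with overlapping ranges is not larger than the spread between pools. By this measure Tspo stood at 184 in WT, close to Txn1, and at 25.1 in KO.

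**Figure D2:**
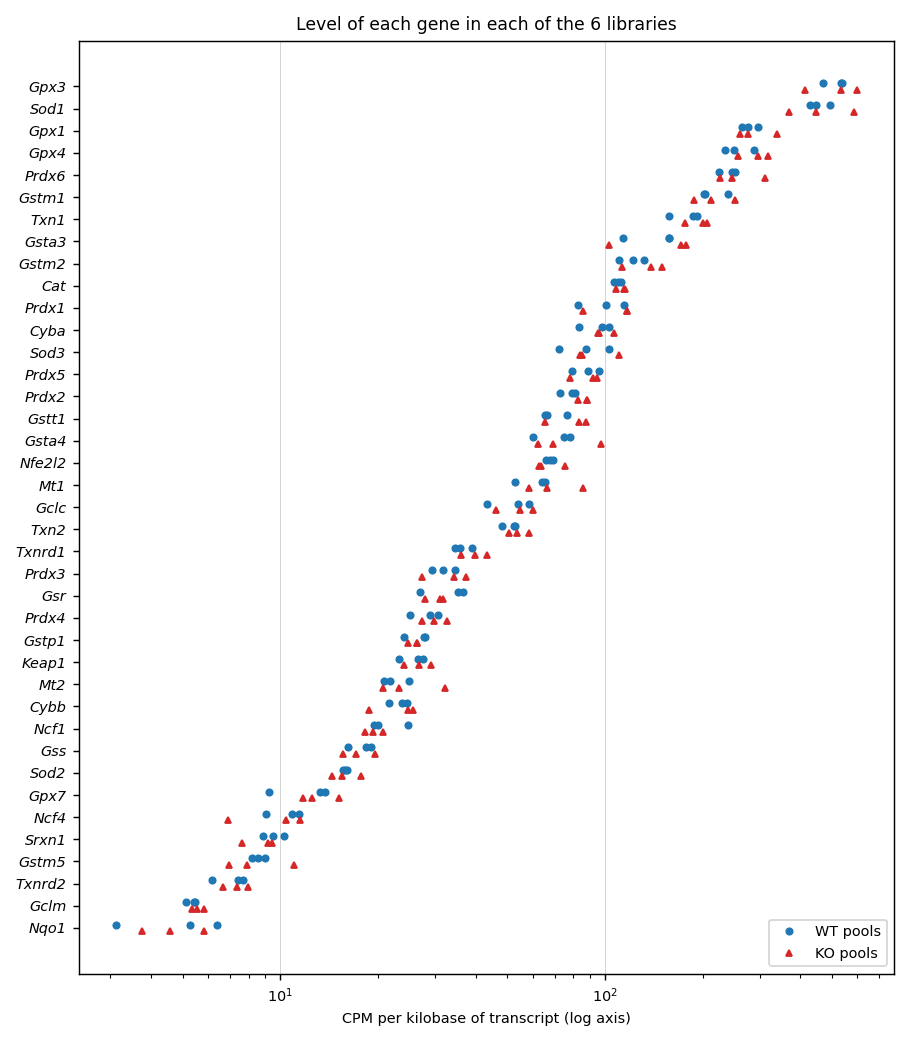
CPM per kilobase of transcript (log axis) of each gene in each library; circles are WT pools and triangles KO pools. Gpx3 and Sod1 lie at the top and Nqo1 and Gclm at the bottom, and for nearly every gene the WT and KO points are interleaved.

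The superoxide dismutases differ in where they work: Sod1 encodes the cytosolic copper-zinc enzyme, Sod2 the mitochondrial manganese enzyme and Sod3 the extracellular enzyme. Sod1 had 316, 275 and 287 CPM in the WT pools and 375, 287 and 236 CPM in the KO pools, so that the KO pools held both the highest and the lowest value. Its log2 fold change was 0.03 (SE 0.15). Sod3 had 327, 386 and 271 CPM in the WT pools and 313, 318 and 414 CPM in the KO pools. It was highest in KO replicate 3 and WT replicate 2. Sod1 was lowest in these pools, though not low in WT replicate 2 with a correction for GC content and length. The log2 fold change of Sod3 was 0.08 (SE 0.15). Fibroblast markers, summed, were also highest in KO replicate 3, at 2670 CPM, and WT replicate 2, at 2160 CPM, against 1580 to 2070 CPM elsewhere. That sum was carried mainly by Col1a1, Col1a2 and Mfap4, while Dcn and Lum of the same list were lowest in these pools, with 105 and 109 CPM of Dcn against 136 to 152 CPM elsewhere. Their part in the Sod3 values was not tested. Sod2, whose product sits in the same organelle as TSPO, averaged 92.8 ± 1.44 CPM in WT pools against 93.3 ± 10.1 CPM in the KO pools (SD, n = 3), with a log2 fold change of 0.01 (SE 0.10). Catalase, the peroxisomal enzyme that splits hydrogen peroxide, had the smallest ratio between its highest and lowest library. Cat had 279, 286 and 293 CPM in the WT pools and 300, 282 and 302 CPM in the KO pools, a ratio of 1.08, which was 1.13 with a correction for GC content and length, where Cyba, Txn1, Prdx4 and Prdx2 had smaller ratios.

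The glutathione peroxidases all had fitted means at or above the WT level without passing the test. Gpx3, on chromosome 11 from 54902453 to 54910377, had 854, 855 and 748 CPM in the WT pools and 956, 660 and 849 CPM in the KO pools. The KO pools again held the extremes, and the log2 fold change was 0.00 (SE 0.15, 95% confidence interval −0.32 to 0.33). Gpx1, the cytosolic enzyme, had 317, 283 and 297 CPM in the WT pools and 363, 280 and 296 CPM in the KO pools. WT and KO overlapped, and the log2 fold change was 0.07 (SE 0.12). Gpx4, which reduces lipid peroxides in membranes, averaged 248 ± 26.9 CPM in WT pools against 278 ± 29.8 CPM in the KO pools (SD, n = 3), with a log2 fold change of 0.17 (SE 0.12). Of the 50-base windows in its transcript, 68.9% also occur in an annotated pseudogene, Gpx4-ps2, so its counts are uncertain in as far as the counting split such reads. Gpx7, a cysteine-based peroxidase of the endoplasmic reticulum, had 11.9, 17.7 and 17.1 CPM in the WT pools and 15.1, 16.1 and 19.6 CPM in the KO pools. WT replicate 1 was the low pool, and the log2 fold change was 0.12 (SE 0.18).

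Among the peroxiredoxins, Prdx2 was the 1 gene of the 39 whose KO pools all lay above its WT pools (2.56% of the list, where 5.46% of all genes tested had groups that did not overlap, 2.28% higher and 3.18% lower in KO). Prdx2 encodes a cytosolic peroxidase that is abundant in red cells, and lies on chromosome 8 from 84969587 to 84974834. It had 119, 109 and 121 CPM in the WT pools and 132, 132 and 124 CPM in the KO pools. The gap between the highest WT pool and the lowest KO pool was small beside the range within WT. The log2 fold change was 0.15 (SE 0.10, 95% confidence interval −0.06 to 0.36), with p = 0.141 before adjustment (edgeR) and an exact two-sided permutation p = 0.1, the smallest that 3 pools against 3 allow. Red cell markers summed to 1310, 753 and 1360 CPM in the WT pools and 1730, 968 and 992 CPM in the KO pools. The part of red cells in the Prdx2 values was not tested. Windows of 50 bases shared with other annotated genes made up 24.0% of the Prdx2 transcript.
Prdx6, which also has phospholipase activity on surfactant lipids and is abundant in lung epithelium, had 588, 599 and 536 CPM in the WT pools and 745, 589 and 540 CPM in the KO pools. KO replicate 1 was above the other 5 libraries, which lay close together, and the log2 fold change was 0.12 (SE 0.14). Prdx1, the cytosolic partner of Prdx2, had 263, 189 and 231 CPM in the WT pools and 268, 268 and 197 CPM in the KO pools. WT replicate 2 and KO replicate 3 were its low pools, and the log2 fold change was 0.10 (SE 0.15). Prdx3 of mitochondria, Prdx4 of the secretory pathway and Prdx5 of several compartments had log2 fold changes of 0.05, 0.09 and 0.00. Srxn1, the sulfiredoxin that repairs overoxidised peroxiredoxins, was at −0.13 (SE 0.12).

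Thioredoxin passes electrons to most peroxiredoxins and is itself reduced by thioredoxin reductase with NADPH. Txn1, the cytosolic thioredoxin, had 197, 166 and 202 CPM in the WT pools and 217, 211 and 185 CPM in the KO pools. The groups overlapped through KO replicate 3, and the log2 fold change was 0.12 (SE 0.11). Its mitochondrial counterpart Txn2 had 68.4, 62.5 and 68.1 CPM in the WT pools and 75.6, 65.7 and 69.5 CPM in the KO pools, at 0.08 on the log2 scale (SE 0.10). The reductase genes Txnrd1, cytosolic, and Txnrd2, mitochondrial, had log2 fold changes of 0.12 (SE 0.11) and 0.05 (SE 0.15). Of the pair, Txnrd1 was the higher, at 38.1 against 7.21 CPM per kilobase.

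Nqo1, a quinone reductase that is widely used as a readout of NRF2 activity, was the least precise gene of the list. It had 9.95, 4.85 and 8.19 CPM in the WT pools and 7.11, 9.02 and 5.81 CPM in the KO pools, from 56 to 110 counts per library. The low pools were WT replicate 2 and KO replicate 3, and the highest library was 2.05 times the lowest. Its log2 fold change of −0.06 (SE 0.26) turned to 0.00094 under limma-voom. Glutathione synthesis begins with glutamate-cysteine ligase, of which Gclc is the catalytic and Gclm the modifier subunit. Gclc had 200, 185 and 148 CPM in the WT pools and 158, 206 and 188 CPM in the KO pools, with WT replicate 3 and KO replicate 1 low, and a log2 fold change of 0.05 (SE 0.14). Gclm averaged 29.8 ± 1.01 CPM in WT pools against 31.1 ± 1.37 CPM in the KO pools (SD, n = 3), the lowest biological coefficient of variation of the list at 0.089. Gss, glutathione synthetase, had a log2 fold change of −0.03 (SE 0.12). Gsr, which returns oxidised glutathione to its reduced form, had 94.2, 72.1 and 97.9 CPM in the WT pools and 82.8, 85.0 and 74.8 CPM in the KO pools. The KO values lay inside the WT range, at a log2 fold change of −0.12 (SE 0.13).

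Neither regulator of the pathway passed the test. Nfe2l2, which encodes NRF2, had 163, 168 and 171 CPM in the WT pools and 186, 155 and 157 CPM in the KO pools, which gave a log2 fold change of −0.01 (SE 0.11). Keap1, its inhibitor and sensor of electrophiles, had 84.4, 87.1 and 73.8 CPM in the WT pools and 76.2, 84.7 and 92.3 CPM in the KO pools, which gave a log2 fold change of 0.04 (SE 0.11). For each of these genes the KO pools spanned the WT mean. NRF2 activity is set mainly by protein stability, which messenger RNA does not measure.
NRF2 binds the antioxidant response element, searched here as TGACNNNGC on both strands in windows from 250 bases before to 50 after the start site (RefSeq, GRCm38.p6). Promoter windows were matched for 33 of the 39 genes. Sod3, Prdx6, Gclc, Gsr, Gsta4 and Ncf4 had no window and were not searched. The element was found in 9 of the 33 (27.3%), against 17.0% of tested genes with a window and 12.4% of all 32817 windows. A match describes letters and not a bound site. Other spellings of the element and sequence outside these windows were not searched, so genes without a match, Nqo1 among them, may still hold one. Of the 9 genes, 6 are shown, that of NRF2 among them, with the element in capitals, on the strand that carries it.
Gsta3, chr1:21240454-21240482, same strand as the gene: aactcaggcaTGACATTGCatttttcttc
Gclm, chr3:122245413-122245441, opposite strand: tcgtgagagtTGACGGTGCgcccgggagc
Srxn1, chr2:152105542-152105570, opposite strand: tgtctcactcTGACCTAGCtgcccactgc
Prdx1, chr4:116685456-116685484, opposite strand: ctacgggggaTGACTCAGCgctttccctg
Txnrd1, chr10:82859104-82859132, opposite strand: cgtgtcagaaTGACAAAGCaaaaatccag
Nfe2l2, chr2:75704885-75704913, same strand: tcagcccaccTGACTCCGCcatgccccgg
Sod1, Gstm5 and Mt2 also held a match. The log2 fold changes of the 9 genes ran from −0.13 for Srxn1 to 0.17 for Mt2, and 0 of 9 had an unadjusted p under 0.05.

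The glutathione transferases join glutathione to electrophiles. Gstm1, the most abundant of them per kilobase, had 308, 263 and 260 CPM in the WT pools and 324, 242 and 273 CPM in the KO pools. The groups overlapped throughout, at a log2 fold change of 0.01 (SE 0.13). Gsta3, on chromosome 1 from 21240589 to 21265661, had 141, 102 and 141 CPM in the WT pools and 153, 159 and 92.4 CPM in the KO pools. Its low pools were WT replicate 2 and KO replicate 3, with a ratio of 1.72 between the highest and lowest library and a log2 fold change of 0.08 (SE 0.19). Without KO replicate 3 its log2 fold change was 0.29, and it turned to −0.06, −0.02 and −0.06 without WT replicate 2, KO replicate 1 and KO replicate 2. Club cell markers, which in mouse airway mark a major site of xenobiotic metabolism, summed to 22900 and 23700 CPM in WT replicate 2 and KO replicate 3, against 26300 to 35200 CPM elsewhere. That sum was carried mainly by Scgb1a1. Scgb1a1, Scgb3a2, Aldh1a1, Gabrp and Hp were lowest in these pools. Scgb3a1 was lower in KO replicate 1 (140 CPM) than in KO replicate 3 (255 CPM), and Cyp2f2 lower in WT replicate 3 (2130 CPM) than in KO replicate 3 (2260 CPM). The part of club cells in the Gsta3 values was not tested. Gsta4, which acts on the lipid peroxidation product hydroxynonenal, had 76.2, 58.7 and 73.1 CPM in the WT pools and 67.5, 94.9 and 61.0 CPM in the KO pools. It too was lowest in WT replicate 2 and KO replicate 3. With the correction for GC content and length Gsta4 was lowest in KO replicate 1, at 62.0 CPM. Gstm2, Gstm5 and Gstp1 had log2 fold changes of 0.14, 0.02 and −0.04. Gstt1 averaged 71.9 ± 6.34 CPM in WT pools against 81.7 ± 12.3 CPM in the KO pools (SD, n = 3), with a log2 fold change of 0.18 (SE 0.13). Without KO replicate 3 it was 0.30 with an unadjusted p of 0.0211 (adjusted p = 0.9633 from edgeR), the 1 member below 0.05 under any alternative. Of the Gstp1 windows of 50 bases, 62.3% also occur in its neighbour Gstp2, and of the Gstm1 windows 23.1% occur in other annotated genes, so these counts are uncertain.

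Metallothioneins bind zinc and copper and scavenge radicals, and Mt1 and Mt2 lie beside each other on chromosome 8. Mt1 had 35.1, 35.9 and 29.0 CPM in the WT pools and 47.0, 32.0 and 36.4 CPM in the KO pools. KO replicate 1 alone stood above the other 5 libraries. Its log2 fold change of 0.20 (SE 0.15, 95% confidence interval −0.12 to 0.53) was the highest of the 39, and was 0.03 without KO replicate 1. Mt2 had 10.7, 12.7 and 11.1 CPM in the WT pools and 16.4, 11.9 and 10.6 CPM in the KO pools, which gave a log2 fold change of 0.17 (SE 0.18). It too was highest in KO replicate 1. Metallothionein genes are known to respond to glucocorticoids. A list of 7 corticosteroid-responsive genes had summed levels of 531, 929 and 806 CPM in the WT pools and 1100, 968 and 731 CPM in the KO pools, of which Tsc22d3 made up 536 CPM in KO replicate 1. Tsc22d3, Per1 and Cdkn1a were highest in that pool, whereas Fkbp5 was highest in KO replicate 2, Sgk1 in WT replicate 3, and Zbtb16 and Pdk4 in WT replicate 2. The part of these genes in the metallothionein values was not tested.
The genes are controlled through metal response elements, searched as TGCACNC or TGCGCNC on both strands. Of the 33 matched members 30.3% held a match, against 39.6% of tested genes with a window and 25.7% of all windows. Mt1 held 3 matches and Mt2 held 4, in capitals in the promoter windows, which are printed because these neighbours were high in the same pool. In the Mt2 window the matches that begin with GT are those of the opposite strand.
Mt1, chr8:94178839-94179138, plus strand: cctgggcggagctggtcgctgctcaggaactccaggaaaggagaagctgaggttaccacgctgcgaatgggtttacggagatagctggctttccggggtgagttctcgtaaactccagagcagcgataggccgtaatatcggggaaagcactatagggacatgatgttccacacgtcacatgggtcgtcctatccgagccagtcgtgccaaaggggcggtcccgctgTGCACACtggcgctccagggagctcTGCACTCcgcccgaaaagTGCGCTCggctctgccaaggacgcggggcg
Mt2, chr8:94172368-94172667, plus strand: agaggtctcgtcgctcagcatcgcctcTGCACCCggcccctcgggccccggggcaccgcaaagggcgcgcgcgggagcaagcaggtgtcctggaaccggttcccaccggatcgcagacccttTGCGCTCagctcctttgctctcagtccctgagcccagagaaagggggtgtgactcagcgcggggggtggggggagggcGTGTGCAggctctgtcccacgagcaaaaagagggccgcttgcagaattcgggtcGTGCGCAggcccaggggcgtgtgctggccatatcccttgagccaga

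**Figure D3:**
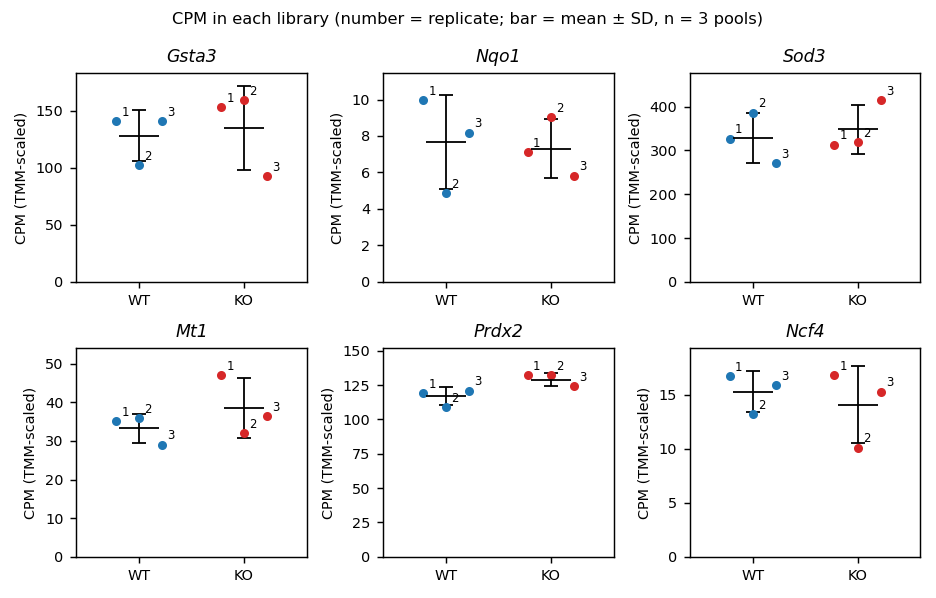
CPM of Gsta3, Nqo1, Sod3, Mt1, Prdx2 and Ncf4 in each library, with the replicate number beside each point and the mean ± SD of 3 pools per genotype as bars. Prdx2 is the 1 gene whose genotypes do not overlap, and in Gsta3 and Nqo1 the low points are WT replicate 2 and KO replicate 3.

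The phagocyte NADPH oxidase consists of a membrane pair, Cybb (gp91phox) and Cyba (p22phox), and cytosolic subunits that join it on activation. Cyba had 76.7, 73.0 and 62.0 CPM in the WT pools and 79.3, 71.1 and 71.2 CPM in the KO pools, which gave a log2 fold change of 0.06 (SE 0.11). Cybb, the catalytic subunit, had 113, 103 and 117 CPM in the WT pools and 122, 118 and 89.4 CPM in the KO pools, which gave a log2 fold change of −0.01 (SE 0.13). Ncf1 (p47phox) had the lowest log2 fold change of the list, −0.14 (SE 0.12), with 67.3, 54.3 and 52.8 CPM in the WT pools and 56.6, 52.7 and 49.5 CPM in the KO pools. WT replicate 1 was its high pool. Ncf4 (p40phox) had 16.7, 13.2 and 15.9 CPM in the WT pools and 16.8, 10.1 and 15.3 CPM in the KO pools, with KO replicate 2 low, and a log2 fold change of −0.12 (SE 0.19). Neutrophil markers were lower in KO for 8 of 10 tested genes, 0 of which passed, with a median log2 fold change of −0.58. Ngp and Ltf were the exceptions, at 0.42 and 0.52. The summed level of the list was 469, 249 and 694 CPM in the WT pools and 466, 307 and 255 CPM in the KO pools. This was a wider range than the 226 to 275 CPM of the summed oxidase subunits. Alveolar macrophage markers, cells that also carry the oxidase, summed to 936 to 1090 CPM in the WT pools and 865 to 1210 CPM in the KO pools, with 10 of 12 genes higher in KO and 0 passed. The largest part of that sum was Chi3l3, at 369 to 569 CPM, which was also listed as a monocyte marker. Fabp4 and Marco were lower in KO, with log2 fold changes of −0.96 and −0.30. The part of either cell type in the oxidase values was not tested.

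Differences between pools recurred across the genes. KO replicate 1 was the highest library for 20 of the 39 genes (51.3%), where it was highest for 17.3% of all genes tested and 18.6% of those within the same range of levels, and it was the lowest library for 0. Summed over the 39 genes, KO replicate 1 had 6230 CPM and the other libraries 5260 to 5750 CPM. The sum was highest in that library for superoxide dismutases, glutathione peroxidases, peroxiredoxins, thioredoxins, regulators, glutathione transferases, metallothioneins and oxidase subunits, though it led the next library by little for thioredoxins (390 against 389 CPM) and oxidase subunits (275 against 274 CPM). Glutathione synthesis and recycling had its lowest sum, 307 CPM, in KO replicate 1 and 313 to 361 CPM elsewhere. Gclc, its most abundant gene, had 158 CPM in KO replicate 1 and 148 CPM in WT replicate 3. None of its genes was lowest in KO replicate 1, and Gclm was highest there, at 32.5 CPM. WT replicate 2 and KO replicate 3 were the lowest pair of libraries for 14 genes (35.9%, against 18.6% of all genes), namely Sod1, Prdx1, Prdx3, Prdx4, Prdx5, Txn1, Nqo1, Gsr, Gss, Gsta3, Gsta4, Gstm2, Gstt1 and Cybb. They were the highest pair for 4 (10.3%, against 18.6%), Sod3, Gpx7, Txnrd2 and Keap1. These genes share libraries, so the shares describe the pools and are not independent observations.

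**Figure D4:**
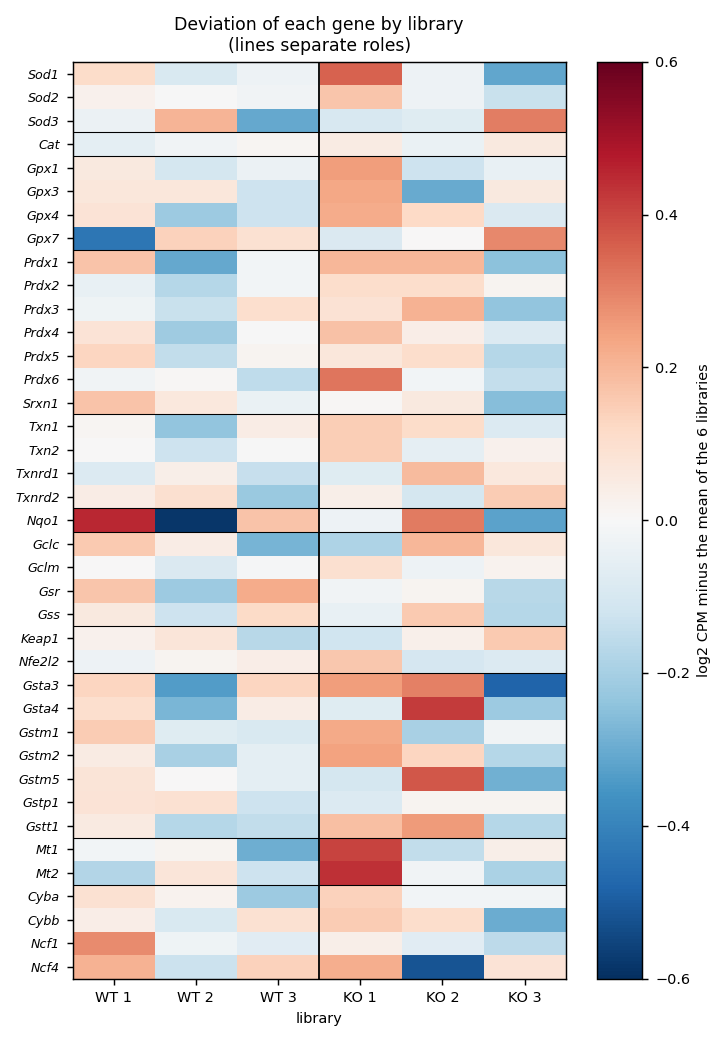
Log2 CPM of each gene minus its mean over the 6 libraries, by library (columns) and gene (rows, with lines between roles); red is above and blue below the gene's mean. The KO 1 column is mostly red, with 20 of 39 genes at their maximum, and the WT 2 and KO 3 columns are blue for many of the same genes.

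Over all genes tested, these pool differences moved with transcript length and GC content, known for 98.2% of genes. KO replicate 1 was the highest library for 24.1% of genes in the shortest tertile of transcripts (genes split into 3 groups of like size) and 13.1% in the longest tertile, and for 35.4% of those under 1000 bp. The median transcript of the 39 genes was 1478 bp long, and 25 of the 39 lay in the shortest tertile. Among the members, KO replicate 1 was highest for 56.0% of those 25 and 27.3% of the 11 in the middle tertile. It was also highest for 3 of 3 in the longest tertile (Sod2, Gclm and Cybb, with 42.2%, 42.1% and 42.4% GC). A trend over length within the list cannot be read from 3 genes. By GC content, KO replicate 1 was highest for 25.3% of all genes in the lowest tertile and 10.7% in the highest. WT replicate 2 and KO replicate 3 were the lowest pair for 37.6% of genes in the lowest tertile of GC content and 3.98% in the highest tertile. The median GC content of the 39 genes was 52.7%. With a smooth correction for GC content and length in each library, chosen after the data were seen, KO replicate 1 was the highest library for 14 of the 39 genes (35.9%, against 15.9% of all genes). WT replicate 2 and KO replicate 3 were then the lowest pair for 9 (23.1%, against 10.5% of all genes). These were Gpx4, Prdx5, Nqo1, Gsr, Gss, Gsta3, Gstm2, Gstt1 and Ncf1. Sod1, Prdx1, Prdx3, Prdx4, Txn1, Gsta4 and Cybb were no longer among them, and Gpx4 and Ncf1 had not been before. Of the examples above, Sod1 then ranged from 249 to 342 CPM in place of 236 to 375 CPM, and Gsta3 from 101 to 151 CPM in place of 92.4 to 159 CPM. Corrected Sod1 had 300 CPM in WT replicate 2, above every library but KO replicate 1. The median ratio of highest to lowest library was 1.35 for the 39 genes and 1.36 for all genes, and 1.31 and 1.28 with the correction.

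**Figure D5:**
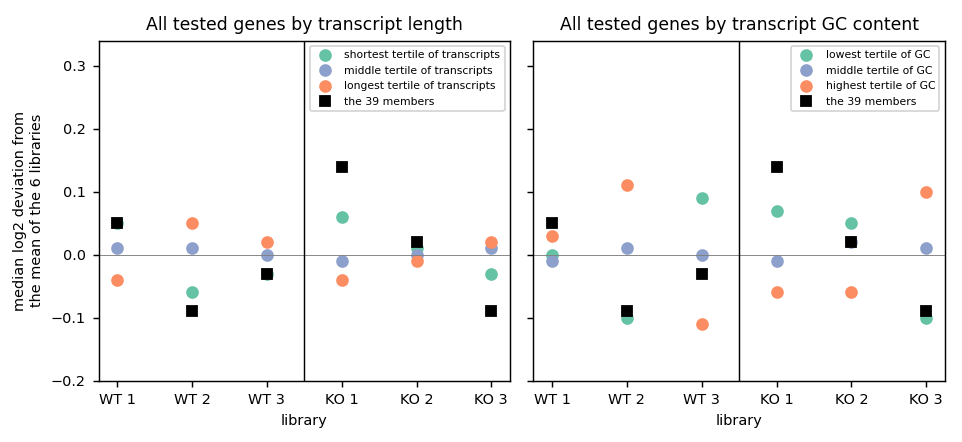
Median log2 deviation of each library from the mean of the 6 libraries, for all tested genes split into tertiles by transcript length (left) and GC content (right), with the 39 genes as squares. In KO 1 the 39 genes lie at 0.14, above each tertile, and in WT 2 and KO 3 at −0.09, where the tertile with the lowest GC content lies at −0.10. The median GC content is 52.7% for the 39 genes and 44.0% for that tertile.

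A wider list of 82 pathway genes, of which 81 were in the table and 65 had enough counts, gave 34 genes with a higher and 31 with a lower fitted mean in KO (median log2 fold change 0.02). Of the 65, 0 passed the test and 0 had an unadjusted p under 0.05 (1.88% of all genes), and for 64 a 2-fold change lay outside the 95% confidence interval (93.2% of all genes). The WT and KO pools did not overlap for 3.08% of the 65, against 5.46% of all genes. The gene whose interval reached past a 2-fold change was Slc7a11, the cystine importer that feeds glutathione synthesis. It had 2.26, 3.03 and 2.34 CPM in the WT pools and 1.76, 1.08 and 2.16 CPM in the KO pools, so that every KO pool was below every WT pool. The log2 fold change was −0.63 (SE 0.31, unadjusted p of 0.0677 from edgeR), from 13 to 35 counts per library. Gstp2 was the 1 gene of the 65 with every KO pool above every WT pool, at 0.31 on the log2 scale, from 10 to 21 counts. Gstm7, a glutathione transferase of the mu class, was at 0.39 and Sepw1, a small selenoprotein, at 0.17, without passing. Hmox1, the inducible haem oxygenase and an NRF2 target, averaged 37.5 ± 1.71 CPM in WT pools against 37.3 ± 1.48 CPM in the KO pools (SD, n = 3). Sepp1, the plasma selenium carrier, and Txnip, the thioredoxin inhibitor, had log2 fold changes of 0.09 and −0.03. Gpx5, Gpx6 and Nox3 had 0 counts in every library. Mt4, a metallothionein of stratified epithelium, had 147 counts in WT replicate 2, the pool in which squamous genes were high, and 0 in the other 5 libraries.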

How the data were processed

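The study isolated total RNA from lungs, pooled 3 samples per library and sequenced 50 bp paired-end reads. Per the labels, the authors aligned them to mm10 with TopHat, and the deposited values are raw counts per transcript with no normalization. How reads were counted, with which annotation release and strand setting, is not given in the sources used here. Of 64529 entries, 31176 are RefSeq transcripts. The 33353 FANTOM3 clones, none named as a member, were left out. In 49 entries a date replaced the gene name, and 48 names were restored by accession. The members had 47 RefSeq entries, and 4 genes (Gpx4, Gsta3, Keap1 and Txnrd1) had more than 1; these share reads, so the transcript with the largest total was used.

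The filterByExpr function (minimum count 10 and minimum total 15) left 14802 genes and removed 8671. After TMM scaling, the genotypes were compared with edgeR 4.0.16 (quasi-likelihood test, R 4.3.3), with Benjamini-Hochberg adjustment over all genes tested and a threshold of 0.05; the common biological coefficient of variation was 0.129. Scripts were tested on simulated data with known changes. Alternatives were RLE scaling, library totals only, DESeq2 1.42.0, edgeR's exact test, limma-voom (limma 3.58.1), no filter, a minimum of 10 counts in all libraries, each library left out in turn, a replicate block, summed RefSeq transcripts, no Rn45s and Lars2, and a threshold of 0.1. A GC and length correction was added after the data were seen.

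Values in every library are given for the highest 1 or 2 genes of each role per kilobase, members whose groups did not overlap and the 5 with the largest ratio between libraries; other genes given that way were chosen after their values were seen. Members, lists and tests were chosen with earlier results of these data known. Libraries of one genotype were compared for copies, and none was found (chi-square per degree of freedom 7.63 to 117). Promoter sequences are from RefSeq, coding sequences from the GENCODE annotation of GRCm38. Protein sequences, lavage flow cytometry, Western blots and histology were not analysed here.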

Additional observations from a re-analysis of the deposited data

How the results depend on the processing

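The count of members past the threshold was 0 under every alternative. Over all genes it was 1, except 2 without WT replicate 1, the added gene being Gdpd3. Directions of single members were less stable. For 14 of 39 genes the fitted direction was the same under every alternative, and for 25 it turned without at least 1 library. Their log2 fold changes without each library in turn ranged, from lowest to highest, as follows: Sod1 −0.16 to 0.18, Sod2 −0.08 to 0.07, Sod3 −0.06 to 0.22, Gpx1 −0.06 to 0.14, Gpx3 −0.12 to 0.14, Gpx7 −0.04 to 0.23, Prdx1 −0.02 to 0.24, Prdx3 −0.05 to 0.17, Prdx5 −0.07 to 0.08, Prdx6 −0.03 to 0.22, Txnrd2 −0.03 to 0.11, Nqo1 −0.31 to 0.19, Gclc −0.06 to 0.15, Gss −0.12 to 0.04, Nfe2l2 −0.11 to 0.03, Keap1 −0.02 to 0.11, Gsta3 −0.06 to 0.29, Gsta4 −0.11 to 0.23, Gstm1 −0.11 to 0.11, Gstm5 −0.20 to 0.15, Gstp1 −0.10 to 0.0017, Mt2 −0.03 to 0.30, Cybb −0.09 to 0.12, Cyba −0.01 to 0.13 and Ncf4 −0.27 to 0.08. With library totals only, Gss was at 0.0097, Nfe2l2 at 0.03 and Cybb at 0.03, under limma-voom Gpx3 was at −0.0061, Nqo1 at 0.00094 and Gstm5 at −0.0027, and with no filter Cybb was at 0.0026. With the GC and length correction Sod1 was at −0.03, Gpx3 at −0.006, Prdx5 at −0.01, Gstm1 at −0.01 and Gstm5 at −0.03, and with the replicate block as well at −0.05, −0.02, −0.02, −0.02 and −0.05. The cause was not tested, and none of these values passed the test in any setting. 

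WT and KO libraries share replicate numbers 1 to 3, but same-numbered libraries did not deviate together (correlations 0.132, −0.233 and −0.273), and WT replicate 2 correlated best with KO replicate 3 (0.389). The numbers were therefore not read as pairs. With a replicate block the count of members past the threshold stayed 0 and the count over all genes stayed 1, and Gpx3 was at −0.0086. Nqo1 and Slc7a11 had 56 to 110 and 13 to 35 counts per library. The interval of Nqo1 does not exclude a 1.5-fold change; its biological coefficient of variation was 0.21, against 0.152 for Gstm5 at 66 to 126 counts. Standard errors of log2 fold changes had a median of 0.126 over the members and 0.142 over all genes.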

Other observations

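In 4 members more than 1 RefSeq entry was counted, and the lower entries held 86.8% to 99.1% of the count of the highest. For the 4 entries of Txnrd1 the totals over the 6 libraries ran from 5275 to 5651 counts, and for Keap1 from 4982 to 5357. The entries of Gpx4 had 16953 and 14707 counts. Entries of one gene share reads, so these totals do not give the share of each form.

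Read sharing with other annotated genes differed widely among the members. Besides Gpx4 and Gstp1, 45.5% of the 50-base windows of Mt2 occur in the annotated gene Gm45774, 29.7% of those of Prdx5 in Trmt112 and 23.1% of those of Sod1 in Gm8566. Sod3, Cat, Gpx1, Gpx3, Gsta3, Nqo1, Gclc, Cybb and Mt1 had 0.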
